A study of Mus musculus with 13 samples.

Results

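The microRNA processing machinery is described here through 10 genes, *Drosha*, *Dgcr8*, *Xpo5*, *Dicer1*, *Tarbp2*, *Prkra*, *Ago1*, *Ago2*, *Ago3* and *Ago4*, in Sertoli cells of adult mice. The genes were chosen by name, as the factors that carry a microRNA from its nuclear precursor to the Argonaute protein, out of 27111 named genes in the deposited expression table. All 10 passed the filter on low counts and were among the 14421 genes tested. Sertoli cells are the somatic cells of the seminiferous epithelium that nourish the developing germ cells. They were enriched from whole testis by sorting for diploid, large cells with a high MitoTracker signal, and RNA was sequenced from 5 ng per sample. The 6 Control and 7 MSUS samples came from adult wild-type C57Bl/6J (labelled Bl6 wt) males. MSUS denotes unpredictable separation of the pups from the dam for 3 h per day between postnatal days 1 and 14, combined with unpredictable stress of the dam, either a cold swim of 5 min or a restraint of 20 min. Control animals were left undisturbed, so the exposure lay weeks before collection and acted on dam and litter together. Each library was taken as 1 animal, since the study lists its mice by number and mentions no pooling, and whether animals of a group shared a litter was not analysed here.

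A microRNA gene is transcribed into a long primary transcript that folds into a hairpin. In the nucleus the Microprocessor, made of the RNase III enzyme Drosha and its RNA-binding partner Dgcr8, cuts out the hairpin, and Exportin-5, the product of *Xpo5*, carries it to the cytoplasm. There Dicer trims it to a short duplex with the help of the double-stranded RNA-binding proteins TRBP (*Tarbp2*) and PACT (*Prkra*), and 1 strand of the duplex is loaded into an Argonaute protein, which uses its seed, the bases 2 to 8, to find target messenger RNAs. Of the 4 mouse Argonautes, Ago2 is known for cleaving targets that match its guide. Loss of *Dicer1* in Sertoli cells is known to stop spermatogenesis and to make males infertile.

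Parts of the machinery carry microRNA sequences themselves. Of the 10 genes, 2 hold an annotated hairpin on their own strand, counted in the GENCODE vM21 annotation of GRCm38. The hairpin of *Mir1306* lies inside a coding exon of *Dgcr8* at chr16:18284239-18284317 on the minus strand, and *Gm24572*, also within *Dgcr8*, lies in an untranslated region at chr16:18284550-18284637. *Mir693* lies within *Xpo5* on the plus strand, outside its coding exons, at chr17:46231531-46231619. The *Mir1306* hairpin, from RefSeq on GRCm38, is shown because the Microprocessor is known to cut hairpins in the messenger RNA of its own subunit. Capitals mark its mature arms.
Mir1306 hairpin: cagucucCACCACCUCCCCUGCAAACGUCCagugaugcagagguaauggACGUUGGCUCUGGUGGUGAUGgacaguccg

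The mature sequences that follow belong to hairpins within *Dgcr8* and *Xpo5* and to hairpins of the *Pank* genes, with the seed in capitals. They are shown because the first 4 are made from transcripts of the machinery itself, and because miR-103 and miR-107 are known to repress *Dicer1*.
mmu-miR-1306-5p: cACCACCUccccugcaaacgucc
mmu-miR-1306-3p: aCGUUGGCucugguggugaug
mmu-miR-693-5p: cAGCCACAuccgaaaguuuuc
mmu-miR-693-3p: gCAGCUUUcagauguggcuguaa
mmu-miR-103-3p: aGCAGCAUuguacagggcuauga
mmu-miR-107-3p: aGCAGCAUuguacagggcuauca

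The last pair shares its seed with no other mature microRNA in the table. The letters complementary to that seed, ATGCTGC, occurred 1 time in the 3' untranslated region of the longest coding *Dicer1* transcript, at bases 1417 to 1423 of 3851, searched on the transcript strand. The site is printed with the matching letters in capitals.
Dicer1 site: ctgatgcttcatgtaATGCTGCacttag
Of 823 genes whose 3' untranslated region was within 10% of that length, 27.6% held the same letters, so such a match is common for its length. Nor was it particular to *Dicer1*. The letters occurred 1 time each in the 3' untranslated regions of *Dgcr8*, *Tarbp2*, *Ago1*, *Ago3* and *Ago4* and 2 times in that of *Ago2*. They occurred 0 times in those of *Drosha*, *Xpo5* and *Prkra*. For *Tarbp2*, with 334 bases, 3.66% of 846 genes of like length held them. Each match is a description of the sequence. Mature microRNAs were not measured in these libraries.

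Total counts per library ranged from 13087203 to 18649945 in Control and from 12701776 to 15693938 in MSUS samples. Features without a gene name held 20.7% to 26.7% of them and were left out of the library size. Levels are given as log2 CPM, the base 2 logarithm of counts scaled to a common total over named genes after TMM normalization. The Sertoli cell markers *Amhr2*, *Clu*, *Ctsl*, *Rhox5* and *Sox9* had a mean level of 10.18 ± 0.10 in Control (SD, n = 6) against 10.15 ± 0.09 in MSUS samples (SD, n = 7). Markers of elongated spermatids, the final germ cell stage before sperm, came next with 7.90 ± 0.23 (SD, n = 6) and 8.09 ± 0.46 (SD, n = 7), and 0 of their 4 genes were at 0. Spermatocyte markers had 4.54 ± 0.17 (SD, n = 6) and 4.27 ± 0.42 (SD, n = 7). The other lists had lower Control means, from 0.43 (macrophage) to 3.07 (round spermatid). Peritubular myoid markers varied most, with 1.70 ± 0.98 (SD, n = 6) and 2.28 ± 1.19 (SD, n = 7). Single genes departed from their list, with the macrophage marker *Mrc1* at 8.87 and the spermatogonial marker *Uchl1* at 7.72 in Control. The other genes of those lists had Control means of 0.57 or less. How much of the levels of the 10 genes came from cells other than Sertoli cells was not tested. In such bulk samples a difference in the number of cells of a type cannot be told apart from a difference in RNA per cell.

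In Control samples the 10 genes differed widely in abundance when counts were divided by the length of their annotated exons (CPM per kb). *Prkra* stood far above the others with 68.9 ± 4.52 CPM per kb (SD, n = 6), higher than 96.2% of the genes tested that had an annotated length. *Drosha* followed with 7.59 ± 0.771 CPM per kb (SD, n = 6), *Ago2* with 6.12 ± 0.927 and *Xpo5* with 6.10 ± 0.606. These were above the median gene, at 5.13 CPM per kb. *Tarbp2* with 4.69 ± 0.154, *Dgcr8* with 4.38 ± 0.584 and *Dicer1* with 2.84 ± 0.437 CPM per kb (SD, n = 6 for each) lay below it. The lowest were *Ago4* with 2.12 ± 0.456, *Ago1* with 1.39 ± 0.193 and *Ago3* with 1.32 ± 0.250 CPM per kb (SD, n = 6 for each).

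Within single Control samples most neighbours in this order kept their places. *Prkra* was above *Drosha* in 6 of 6 samples, by 3.19 ± 0.19 on the log2 scale (SD). *Ago2* and *Xpo5* were not separated, with *Ago2* higher in 3 of 6 samples, and neither were *Tarbp2* and *Dgcr8*, with *Tarbp2* higher in 4 of 6. *Ago4* exceeded *Ago1*, and *Ago1* exceeded *Ago3*, in 5 of 6 samples each. The length used matters for part of this order. The exon union of *Tarbp2* is 4549 bases and its longest coding transcript 1523 bases. When the longest coding transcript replaced the exon union, the mean log2 CPM per kb was 3.81 for *Tarbp2*, which then came after *Prkra* and before *Drosha* at 3.29. *Xpo5* at 3.04 and *Dgcr8* at 2.95 then lay above *Ago2* at 2.62, and *Dicer1* and the other Argonautes kept their places.

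**Figure D1:**
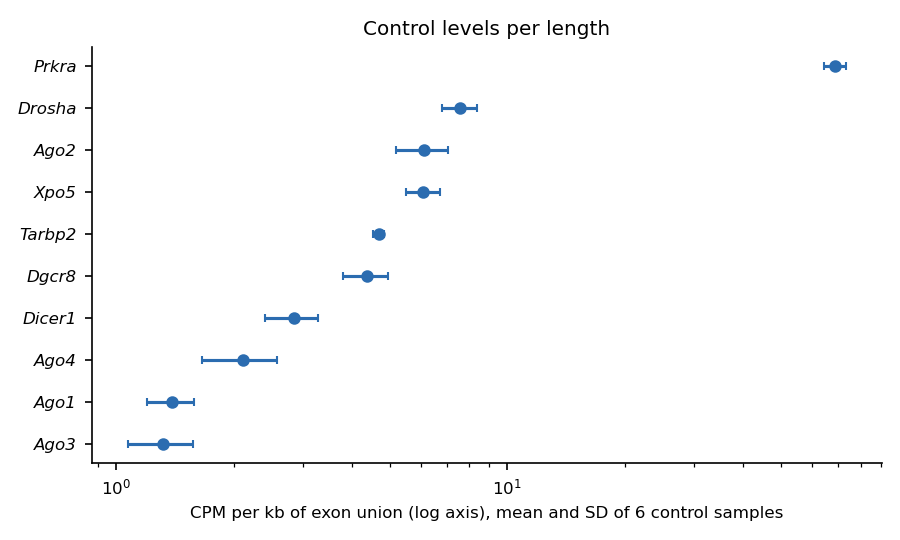
Level per length of the 10 microRNA processing genes in Control samples. Points are means and bars SD of 6 samples in CPM per kb of exon union, on a log axis. *Prkra* at 68.9 lies apart from the other genes, which span 1.32 to 7.59.

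Of the Microprocessor pair, both genes differed between the groups by less than the spread between animals. *Drosha*, on chromosome 15 from 12824815 to 12935291 (all coordinates are of GRCm38), encodes the enzyme that cuts the primary transcript. Its log2 CPM in Control samples had a lowest value of 5.29, a median of 5.49 and a highest of 5.67, against 5.38, 5.48 and 5.79 in MSUS samples. The ranges overlapped, with 1 Control sample below and 2 MSUS samples above the other group. The log2 fold change, MSUS minus Control, was 0.05 (SE 0.085, 95% confidence interval -0.13 to 0.23), with an unadjusted p of 0.581 and an adjusted p of 0.945 by limma.

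*Dgcr8*, on chromosome 16 from 18253948 to 18289246, encodes the partner that recognises the hairpin. Its Control values ran from 4.80 through a median of 5.09 to 5.32 and its MSUS values from 4.96 through 5.09 to 5.27, so the MSUS samples lay within the Control range. Its log2 fold change was -0.0050 (SE 0.090, 95% confidence interval -0.19 to 0.18, limma adjusted p = 0.994). The log2 ratio of *Drosha* to *Dgcr8* counts within a sample, a value free of scaling between libraries, was 0.42 ± 0.24 in Control (SD, n = 6) against 0.46 ± 0.09 in MSUS samples (SD, n = 7), with an exact permutation p of 0.708. Without Control 14, the sample with the highest ratio at 0.88, the difference was 0.13 with an exact permutation p of 0.0429 before adjustment.

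*Xpo5*, on chromosome 17 from 46202782 to 46243598, encodes the carrier that exports the hairpin. Its lowest, median and highest log2 CPM were 5.14, 5.45 and 5.51 in Control and 5.26, 5.43 and 5.65 in MSUS samples. MSUS animals 1 and 13, at 5.65 and 5.55, exceeded every Control sample, and the remaining 5 MSUS samples lay within the Control range. Its log2 fold change was 0.07 (SE 0.082, 95% confidence interval -0.11 to 0.24, limma adjusted p = 0.928).

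*Dicer1*, on chromosome 12 from 104687742 to 104751952, encodes the enzyme that turns the hairpin into a duplex. Its lowest, median and highest log2 CPM were 5.31, 5.56 and 5.83 in Control and 5.47, 5.63 and 6.18 in MSUS samples. The highest MSUS value was that of animal 26, and the other 6 MSUS samples lay between 5.47 and 5.84, within or next to the Control range. Between the groups the log2 fold change was 0.13 (SE 0.116, 95% confidence interval -0.11 to 0.37), an interval from 0.925-fold to 1.30-fold, with a limma adjusted p of 0.899. It was 0.05 without MSUS 26 and 0.05 with the slope on transcript length as a covariate, and 0.21 with the elongated spermatid markers as a covariate (limma unadjusted p of 0.0551). MSUS 26 had the highest slope and the lowest level of those markers, so these covariates are not separate.

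The Dicer partners differed in how much they varied. *Prkra*, on chromosome 2 from 76629898 to 76648015, had a lowest, median and highest log2 CPM of 6.95, 7.15 and 7.23 in Control and 6.95, 7.05 and 7.19 in MSUS samples. It had 1301 to 1909 counts per library and the narrowest interval of the 10 genes. Its log2 fold change was -0.06 (SE 0.062, 95% confidence interval -0.19 to 0.07, limma adjusted p = 0.924), which bounds the MSUS level between 0.877-fold and 1.05-fold of Control.

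*Tarbp2*, on chromosome 15 from 102518192 to 102523676, had nearly the same mean in both groups and a different spread. Its Control values ran from 4.34 through a median of 4.44 to 4.48, and its MSUS values from 4.02 through 4.44 to 4.86. Of the MSUS samples, 3 lay above and 3 below every Control sample. The SD was 0.048 in Control (n = 6) and 0.30 in MSUS samples (n = 7). Counting error alone would give an SD of about 0.090 in Control and 0.094 in MSUS samples, so the Control SD lay below that value and the MSUS SD above it. Among 2268 genes with a Control level within 0.5 log2 units, 0.309% had a smaller Control SD, and among 2277 such genes 77.6% had a smaller SD in MSUS samples. This difference in spread was noticed after the values were seen and was not tested. The log2 fold change was -0.0084 (SE 0.120, 95% confidence interval -0.26 to 0.24, limma adjusted p = 0.991).

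**Figure D2:**
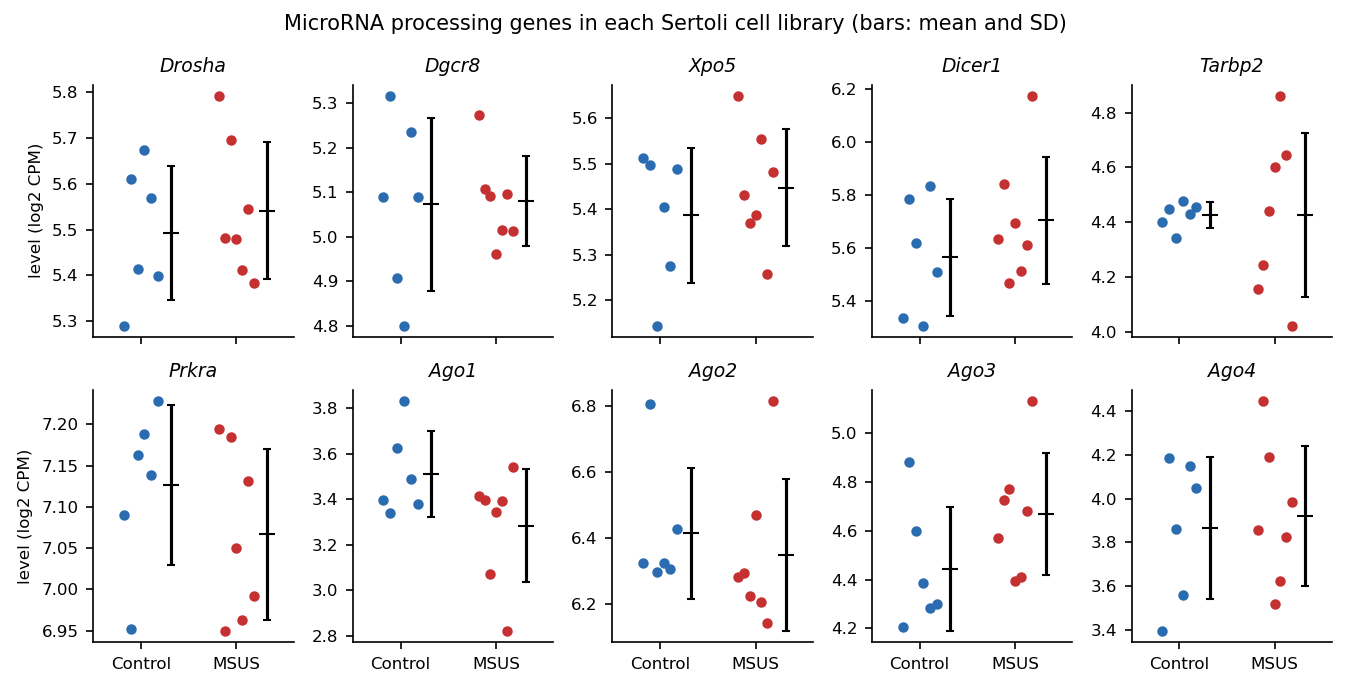
Log2 CPM of each microRNA processing gene in every library, Control in blue and MSUS in red, each point 1 animal, with mean and SD of 6 and 7 samples as bars. Each panel has its own vertical axis. The groups overlap in all 10 panels, and *Tarbp2* shows Control values between 4.34 and 4.48 inside MSUS values between 4.02 and 4.86.

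The Argonautes bind the mature microRNA. *Ago1*, *Ago3* and *Ago4* are neighbours on the minus strand of chromosome 4, at 126435012 to 126468583, 126331704 to 126429556 and 126489541 to 126533472, while *Ago2* lies on chromosome 15 from 73095844 to 73184935. *Ago1* and *Ago3* had the largest differences of the 10 genes, in opposite directions, and neither passed the test. *Ago1* had a lowest, median and highest log2 CPM of 3.34, 3.44 and 3.83 in Control and 2.82, 3.39 and 3.54 in MSUS samples. MSUS animals 6 and 23, at 3.07 and 2.82, lay below every Control sample, and 6 of 7 MSUS samples lay below the Control mean. MSUS minus Control gave a log2 fold change of -0.21 (SE 0.134, 95% confidence interval -0.49 to 0.07), with an unadjusted p of 0.137 and an adjusted p of 0.878 by limma. *Ago1* also had the fewest counts, 64 to 156 per library.

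*Ago3* had a lowest, median and highest log2 CPM of 4.20, 4.35 and 4.88 in Control and 4.40, 4.68 and 5.13 in MSUS samples. The Control median lay below every MSUS sample, and the highest Control sample, animal 10 at 4.88, exceeded 6 of 7 MSUS samples. The log2 fold change was 0.22 (SE 0.133, 95% confidence interval -0.06 to 0.50), with an unadjusted p of 0.123 and an adjusted p of 0.878 by limma. Without Control 10 the log2 fold change was 0.32 with an unadjusted p of 0.0243 and an adjusted p of 0.597 by limma. Without MSUS 26 it was 0.14 (limma unadjusted p of 0.272), and with the slope on transcript length described further on as a covariate it was 0.13 (limma unadjusted p of 0.255).

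*Ago2*, the cleaving Argonaute, had a lowest, median and highest log2 CPM of 6.30, 6.32 and 6.81 in Control and 6.14, 6.28 and 6.81 in MSUS samples. In each group 1 animal stood above the rest, Control 10 and MSUS 26. Between the groups the log2 fold change was -0.07 (SE 0.107, 95% confidence interval -0.29 to 0.16, limma adjusted p = 0.943). *Ago4* had a lowest, median and highest log2 CPM of 3.40, 3.95 and 4.18 in Control and 3.52, 3.86 and 4.44 in MSUS samples. It had the widest interval of the 10 genes, with a log2 fold change of 0.04 (SE 0.164, 95% confidence interval -0.31 to 0.38, limma adjusted p = 0.979).

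Per length, *Ago2* supplied 55.8% ± 2.94 of the Argonaute transcripts in Control (SD, n = 6) against 54.2% ± 4.21 in MSUS samples (SD, n = 7). *Ago4* supplied 19.3% ± 3.09 and 20.4% ± 4.18, *Ago1* 12.9% ± 2.57 and 11.1% ± 1.58, and *Ago3* 12% ± 1.16 and 14.3% ± 1.46. The log2 ratio of *Ago2* counts to the sum of the other Argonautes was 0.84 ± 0.15 in Control (SD, n = 6) against 0.70 ± 0.22 in MSUS samples (SD, n = 7). The difference of -0.14 had an exact permutation p of 0.210. Stretches of 31 bases shared with another Argonaute made up 2.0% of those of *Ago1*, 0.845% of *Ago3*, 0.164% of *Ago2* and 0.116% of *Ago4*. How reads were divided between the genes was not examined.

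Over all genes, 0 of 14421 passed an adjusted p of 0.05 (0%), with a smallest adjusted p of 0.878, and 781 (5.42%) had an unadjusted p below 0.05 by limma. edgeR's quasi-likelihood test gave 793 and DESeq2 835 at that unadjusted threshold, and 0 after adjustment. Of the 10 microRNA processing genes, 0 passed the adjusted threshold, 0 had an unadjusted p below 0.05 and 0 had groups that did not overlap, which held for 0.132% of all genes. The log2 fold change was positive for 5 and negative for 5, with a median of 0.02, against -0.0018 over all genes tested. The median SE was 0.111 against 0.128. The lowest bound of the 10 intervals was 0.712-fold, for *Ago1*, and the highest 1.41-fold, for *Ago3*.

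**Figure D3:**
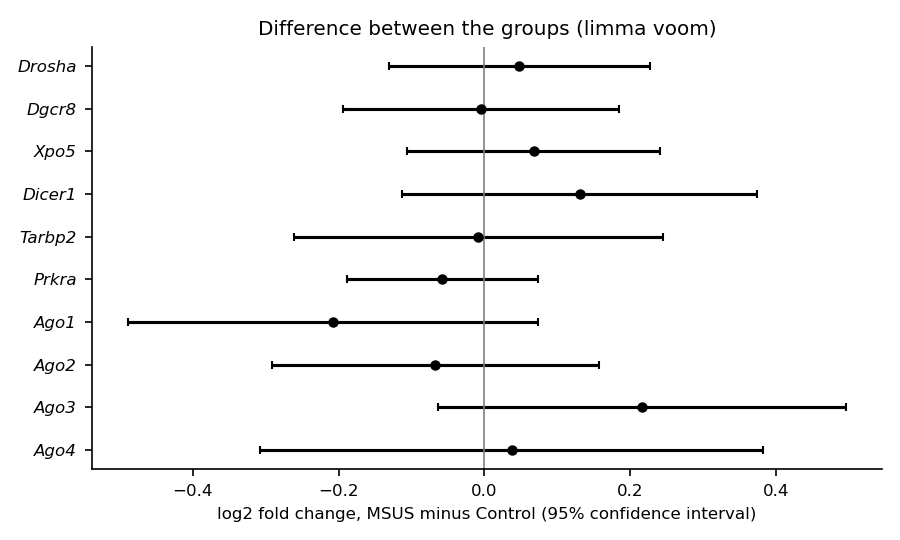
Log2 fold change, MSUS minus Control, of the 10 microRNA processing genes by limma voom over 6 Control and 7 MSUS samples, with 95% confidence intervals as bars. Each interval includes 0; *Ago1* at -0.21 and *Ago3* at 0.22 lie farthest from it.

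Of 6 log2 ratios between the genes within a sample, 0 had an exact permutation p below 0.05 between the groups. Besides the 2 already given, these were *Dicer1* to *Drosha*, *Dicer1* to *Tarbp2*, *Tarbp2* to *Prkra* and *Xpo5* to *Dicer1*, with exact permutation p-values from 0.562 to 0.685 and an adjusted p of 0.708 for each of the 6. The smallest p this design allows is 0.000583.

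The other genes of the pathway were followed in a list of 60, of which 58 were tested. By limma 0 passed the adjusted threshold, 31 had a positive and 27 a negative log2 fold change, and the median was 0.0043. With an unadjusted p below 0.05 there was 1 gene, *Adar*, against 5.42% of all genes. *Adar* encodes an enzyme that edits adenosines in double-stranded RNA. Its log2 fold change was 0.23 (SE 0.104, unadjusted p = 0.042, adjusted p = 0.878) and its level 5.37 ± 0.21 log2 CPM in Control (SD, n = 6) against 5.60 ± 0.19 in MSUS samples (SD, n = 7). Its unadjusted p was above 0.05 in 10 of 23 alternatives, among them library size alone, quality weights and leaving out Control 9, 10 or 14 or MSUS 1, 5 or 26, with a log2 fold change between 0.16 and 0.28.

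Among 12 Microprocessor cofactors the RNA helicase gene *Ddx5* was the most abundant in Control with 135 CPM per kb, and *Mettl3*, which encodes the methyltransferase that marks adenosines of RNA, had the largest difference, a log2 fold change of 0.12 (SE 0.094). Of the 4 export and import carriers, *Ran*, whose product powers nuclear transport and releases the Exportin-5 cargo, was both the most abundant at 65.0 CPM per kb and the one with the largest difference, -0.13 (SE 0.074) on the log2 scale. Among the 9 genes for Dicer partners and Argonaute loading, *Hsp90ab1*, a chaperone gene, had 692 CPM per kb. Negative log2 fold changes numbered 7 of 9 in this group, 3 of 12 among the Microprocessor cofactors, 2 of 4 among the carriers and 7280 of 14421 over all genes tested.

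Argonautes silence their targets through GW182 scaffold proteins and the deadenylation and decapping machinery. In the group of scaffolds and repression partners 10 of 11 genes were tested. *Pabpc1*, which encodes the cytoplasmic poly(A)-binding protein, was the most abundant there with 65.5 CPM per kb, and the helicase gene *Mov10* had the largest difference, a log2 fold change of 0.18 (SE 0.094). Of the 15 decay genes *Cnot8*, a deadenylase subunit gene, had 38.0 CPM per kb, and the decapping cofactor gene *Dcp1a* had a log2 fold change of -0.12 (SE 0.072). Of the 9 genes for tailing and turnover of microRNAs 8 were tested. The exonuclease gene *Xrn2* led with 39.5 CPM per kb, and *Lin28b*, which encodes a protein that blocks let-7 maturation and held 1 to 20 counts per Control library, had a log2 fold change of -0.25 (SE 0.750). *Lin28a* and *Trim71* did not pass the count filter.

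Genes that carry microRNA hairpins were a second list, of 28, of which 27 were in the table and 25 were tested. Of the 28, 26 hold a hairpin on their own strand and 2, *Dnm2* and *Nr6a1*, only on the opposite strand. By limma 0 passed the adjusted threshold, 3 had an unadjusted p below 0.05 against 5.42% of all genes, and the median log2 fold change was 0.09. The 3 were *Dnm2*, a dynamin gene, with a log2 fold change of 0.16 (SE 0.062, limma unadjusted p of 0.018), *Ctdsp1*, host of *Mir26b*, with -0.18 (SE 0.082, limma unadjusted p of 0.041), and *Trpm3*, host of *Mir204*, with 0.25 (SE 0.118, limma unadjusted p of 0.048). Their limma adjusted p was 0.878 each. The unadjusted p stayed below 0.05 in 23 of 23 alternatives for *Dnm2*, in 16 for *Ctdsp1* and in 10 for *Trpm3*. *Pank1* and *Pank3*, hosts of *Mir107* and *Mir103-1*, whose products share the seed printed above, had log2 fold changes of 0.01 (SE 0.073) and -0.08 (SE 0.070). *Pank2*, host of *Mir103-2*, had a log2 fold change of -0.03 (SE 0.070).

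How the 10 genes varied together between animals was examined over the 13 samples after the group means were removed. Of the 45 pairs, 21 had a positive and 24 a negative Pearson r, with a median of -0.06, and 0 had an adjusted p below 0.05. At an unadjusted p of r below 0.05 there were 3 pairs, none of which had such a p by rank. *Dicer1* and *Ago2* had r = 0.70 (permutation p = 0.0095, adjusted p = 0.347) and Spearman's rho = 0.56 (permutation p = 0.0504, adjusted p = 0.578), and r was 0.66 without Control 22 and MSUS 26. *Ago2* and *Ago3* had r = 0.67 (permutation p = 0.0154, adjusted p = 0.347) and rho = 0.19 (permutation p = 0.530). This pair rested on Control 10 and MSUS 26, without which r was -0.43. *Dicer1* and *Ago3* had r = 0.62 (permutation p = 0.0253, adjusted p = 0.362) and rho = 0.35 (permutation p = 0.239). By rank the p was below 0.05 for *Dicer1* with *Ago4* (rho = 0.58, permutation p = 0.0406, adjusted p = 0.578) and *Ago3* with *Ago4* (rho = 0.57, permutation p = 0.0441, adjusted p = 0.578), whose r was 0.53 each. The Microprocessor pair, *Drosha* with *Dgcr8*, had r = 0.30 (permutation p = 0.313).

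**Figure D4:**
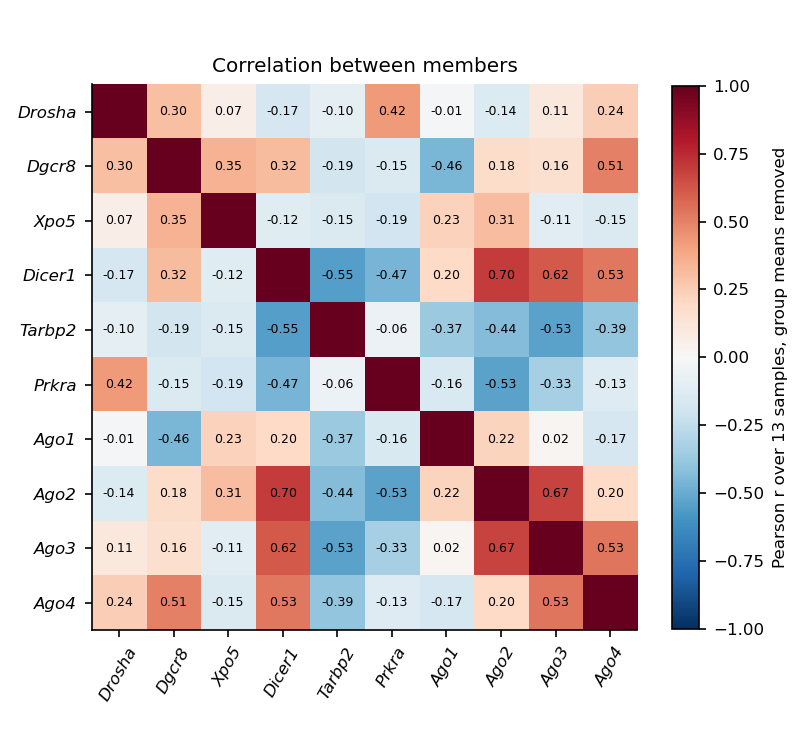
Pearson r between the log2 CPM of each pair of microRNA processing genes over 13 samples with group means removed, from blue for -1 to red for 1, with r in each cell. *Dicer1*, *Ago2* and *Ago3* form the pairs with the highest r, 0.62 to 0.70, and *Tarbp2* is negative with each of the others.

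These genes differ in length, and libraries differed in how level depended on length. For each library a slope of log2 CPM on log2 exon length was taken across the genes, relative to the mean of all libraries, a measure added after the values were seen. It was -0.012 ± 0.036 in Control (SD, n = 6) against 0.010 ± 0.060 in MSUS samples (SD, n = 7), with an exact permutation p of 0.461, and it was highest in MSUS 26 at 0.119. Of the 10 relations of a gene with this slope, those of *Tarbp2* and *Dicer1* were the strongest. The slope was fitted to the same levels, with the 10 genes among them, so a long gene leans toward a positive r by construction. The permutation p-values do not allow for this. How often other genes of like length reach such an r was not examined. *Tarbp2* had r = -0.80 (permutation p = 0.0010, adjusted p = 0.0100) and rho = -0.76 (permutation p = 0.0039), and r was -0.80 without Control 10 and MSUS 26. Its exon union, the length used for the slope, is 4549 bases, near the median of 4413 over the genes tested. Its longest coding transcript is 1523 bases. *Dicer1*, with an exon union of 16750 bases, had r = 0.77 (permutation p = 0.0021, adjusted p = 0.0104) and rho = 0.59 (permutation p = 0.0365), with r = 0.48 without the same samples.

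*Ago3* had r = 0.74 with the slope (permutation p = 0.0036, adjusted p = 0.0120) and *Ago2* r = 0.68 (permutation p = 0.0129, adjusted p = 0.0322), and these fell to 0.35 and -0.11 without Control 10 and MSUS 26. With the slope removed, the r of the 3 pairs became 0.38 for *Dicer1* with *Ago2*, 0.34 for *Ago2* with *Ago3* and 0.10 for *Dicer1* with *Ago3*. Other pairs became stronger, and 2 then had a permutation p below 0.05. The r of *Tarbp2* with *Prkra* went from -0.06 to -0.74 (permutation p = 0.0040, adjusted p = 0.180) and that of *Dgcr8* with *Ago1* from -0.46 to -0.65 (permutation p = 0.0168, adjusted p = 0.378). The elongated spermatid markers moved against *Dicer1*, with r = -0.61 (permutation p = 0.0271, adjusted over 10 relations 0.271) and rho = -0.39 (permutation p = 0.189). That r was 0.0023 without Control 22 and MSUS 26. For *Tarbp2* r was 0.54 (permutation p = 0.0604, adjusted p = 0.302) and rho 0.43 (permutation p = 0.139), with r = 0.26 without the same samples. MSUS 26 had both the highest slope, 0.119, and the lowest mean level of the elongated spermatid markers, 7.26 log2 CPM. Those markers are also short, with exon unions from 437 bases (*Tnp1*) to 894 bases (*Prm2*). Length dependence and germ cell RNA therefore cannot be told apart here, and the part of each in these correlations was not tested.

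**Figure D5:**
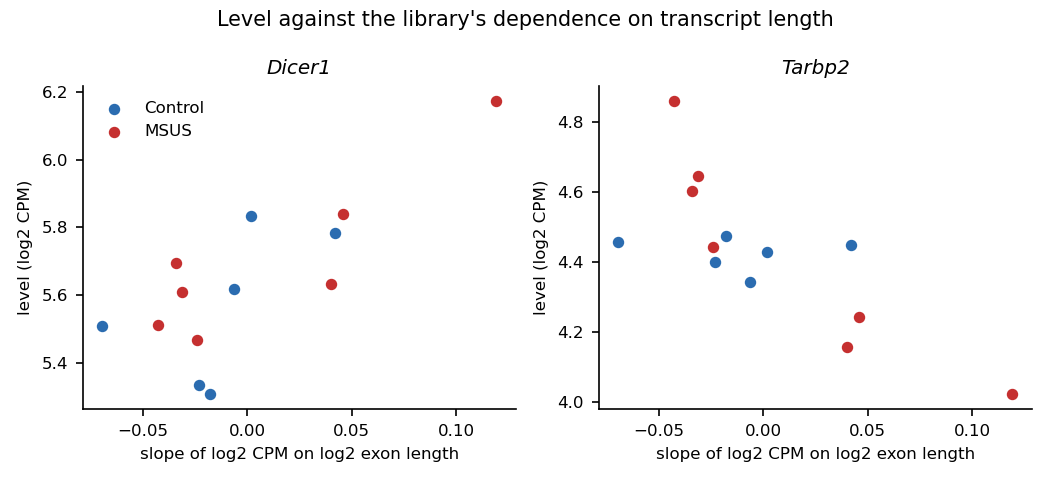
Log2 CPM of *Dicer1* (left) and *Tarbp2* (right) against the slope of log2 CPM on log2 exon length of the same library; each point is 1 of 13 animals, Control in blue and MSUS in red. *Dicer1* is higher and *Tarbp2* lower toward the right, and MSUS 26 lies alone at a slope of 0.119.

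The genes whose level was most like the mean of the 10 over the 13 samples were *Trank1* with r = 0.95, *Trp53bp1* with r = 0.94 and *Trrap* with r = 0.93, again with group means removed. They were picked as the highest r among the genes tested, and what chance gives in such a search was not examined. For comparison, the highest r of a single member with any other gene ran from 0.87 (*Xpo5*) to 0.94 (*Dicer1*). All 3 are long, with exon unions of 13123, 14164 and 20859 bases against a median of 4413 bases. Their own r with the slope on length was 0.87, 0.75 and 0.80, and how often other long genes reach this was not examined. The promoters of 9 of the 10 genes were matched in RefSeq (GRCm38). Their median GC content was 73% against 60% over 10830 genes tested, and their ratio of observed to expected CpG 1.04 against 0.746.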

How the data were processed

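RNA of sorted Sertoli cells from 6 Control and 7 MSUS males was sequenced single-end from libraries of the SMARTer Stranded Total RNA-Seq Pico v2 kit. The authors trimmed reads with Trim Galore 0.6.5, assigned them with Salmon 1.1.0 to GENCODE transcripts and deposited estimated counts per gene without normalization. How transcripts were summed to genes is not given in the sources used here. The 10 genes and the lists were chosen with earlier results of these data known.

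Estimated counts were rounded, and 27170 of 54281 features without a gene name were left out. The table had 0 columns without a sample. The test was limma 3.58.1 (R 4.3.3) after voom, with TMM factors and filterByExpr from edgeR 4.0.16 and Benjamini-Hochberg adjustment over all 14421 genes. Levels have a prior count of 2, and ratios a pseudocount of 0.5. edgeR's quasi-likelihood test, DESeq2 1.42.0, quality weights, other scalings and filters, an elongated spermatid covariate and leaving out each sample were alternatives, and the length slope was added after seeing the data. The fit was tested on simulated data. Single values were compared by exact permutation tests, two-sided, over 1716 assignments, and correlations by 100000 permutations. Over 78 pairs of libraries the chi-square per gene ranged from 6.11 to 49.5, so no library repeated another. No replicate number in the sample titles occurs in both groups, so the numbers pair nothing. Whether animals shared a litter or cage is not in the labels. The study lists cage and litter of its mice and placed siblings in different cages, and this was not used here. The p-values between groups set a difference against the spread between these samples.

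Lengths and coordinates come from GENCODE vM21 of GRCm38, found for 92.6% of the genes tested. The named genes were the 10, list genes with an unadjusted p below 0.05, the most abundant and most different gene of each pathway role, the 3 genes most like the mean of the 10, and the Sertoli cell markers. *Pank1*, *Pank2*, *Pank3*, *Lin28a*, *Trim71*, *Nr6a1*, *Mrc1*, *Uchl1*, *Tnp1* and *Prm2* were named after their values were seen. RefSeq sequences of microRNAs and promoters were read by name, and promoters of 9 of the 10 genes matched.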

Additional observations from a re-analysis of the deposited data

Results flagged for a closer look

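Among 32 groups of values searched, of which chance would single out about 1.6, 2 held a sample far from the others. The *Ago2* level of Control 10 was 6.81 log2 CPM, the highest of the Control samples, with the next at 6.43 and the remaining values from 6.30 to 6.43. The same animal had the highest Control values of *Dgcr8*, *Ago3* and *Ago4* and the lowest of *Ago1* and *Prkra*. It also had the highest Control slope on transcript length and the most counts of all libraries, 18649945. The log2 ratio of *Dicer1* to *Drosha* was -0.37 in Control 14, the lowest of the Control samples, with the next at 0.04 and the highest at 0.27. This animal had both the lowest *Dicer1* and the highest *Drosha* level of the Control samples.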

How the results depend on the processing

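The adjusted p of each of the 10 genes stayed above 0.05 in all 23 alternatives, with a lowest value of 0.597 for *Ago3*, and 209 of their log2 fold changes kept their sign. The 21 that changed sign belonged to *Tarbp2* (8), *Dgcr8* (7), *Ago4* (5) and *Ago2* (1, without Control 10). The main values of these genes were -0.0084, -0.0050, 0.04 and -0.07. *Tarbp2* became 0.0237 with edgeR, 0.0284 with DESeq2, 0.0453 with sample quality weights and 0.0796 with the slope on length as a covariate. *Dgcr8* became 0.00074 with DESeq2 and 0.0066 with quality weights, and *Ago4* -0.0188 with the slope. When each sample was left out in turn, the log2 fold change ranged from -0.0533 to 0.0489 for *Dgcr8*, from -0.0815 to 0.0684 for *Tarbp2*, from -0.143 to 0.0172 for *Ago2* and from -0.0546 to 0.109 for *Ago4*. It ranged from 0.0043 to 0.0809 for *Drosha*, from 0.0169 to 0.0961 for *Xpo5*, from 0.0524 to 0.186 for *Dicer1*, from -0.0946 to -0.0379 for *Prkra*, from -0.248 to -0.140 for *Ago1* and from 0.138 to 0.317 for *Ago3*. The cause of these changes was not tested.

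Genes with an unadjusted p below 0.05 numbered 1182 without a count filter, 1204 with the elongated spermatid covariate and 534 to 1121 with 1 sample left out, and with scaling by library size alone 325 of 794 were higher against 435 of 781 after TMM. Of the 10 genes, 1 had such a p with the spermatid covariate, and 0 to 1 with 1 sample left out. With the covariate it was *Ago3*, with a log2 fold change of 0.28 (limma unadjusted p of 0.0484, adjusted p of 0.597). With 1 sample left out it was again *Ago3*, without Control 10. The pathway list had 0 such genes with library size alone, 6 with the spermatid covariate and 0 to 5 with 1 sample left out, with 3 without Control 10, 5 without MSUS 11 and 3 without MSUS 13 or 23. The list of host genes, with 3 in the main fit, had 4 with sample quality weights and 4 with the spermatid covariate. It had 1 with the slope on length and 1 to 3 with 1 sample left out, with 1 without Control 24 or MSUS 1. Left-out samples moved the difference in the log2 ratio from -0.0017 to 0.13 for *Drosha* to *Dgcr8*, from -0.0125 to 0.158 for *Dicer1* to *Drosha*, from -0.0038 to 0.25 for *Dicer1* to *Tarbp2* and from -0.0315 to 0.125 for *Tarbp2* to *Prkra*. No paired analysis was possible because the groups share no replicate number. Counts limit *Ago1* most, with 64 to 156 per library.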
